A study of Mus musculus with 12 samples.

Results

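The numbered Zfp genes are mouse genes named for zinc fingers, short protein folds in which a zinc ion is held by cysteines and histidines. In the C2H2 type, fingers repeat in tandem and each contacts a few bases of DNA, so an array of fingers reads a DNA sequence. Many of these genes also encode a KRAB domain, which recruits the co-repressor Trim28 and silences chromatin, often at transposable elements, and KRAB zinc finger genes are known for lying in clusters of tandem copies. The members described here were chosen by their read depth and are the autosomal protein-coding genes whose symbol is Zfp followed by a number and which had at least 300 allele-specific read pairs summed over the F1 libraries. There were 281 such members among 37991 genes in the tables, from 362 autosomal protein-coding genes of that name. The limit used only the sum of both alleles, so the level of a member is no finding, whereas the difference between alleles was not used. Zfp791 with 300 and Zfp810 with 310 allele-specific read pairs stood just inside the limit, and Zfp950 and Zfp493 with 298 each stood just outside. The 81 genes under the limit had a median of 78 read pairs, and 24 of them had 0.

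The samples were 12 RNA libraries from whole retinas of male mice aged 8 weeks, each made from a pool of 6 to 8 retinas. There were 3 libraries each of the inbred strain C57BL/6J (F0 B6), of the wild-derived inbred strain Cast/EiJ (F0 Cast), of the F1 hybrid B6xCast with a Cast/EiJ mother and of the reciprocal F1 hybrid CastxB6 with a C57BL/6J mother. The labels name no transgene and no treatment. In an F1 hybrid both alleles lie in the same nuclei, so a difference between alleles is called cis, and the part of the F0 difference that the alleles do not show is called trans.

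Levels are given in count equivalents, the authors' normalized estimates of read pairs per gene or allele, and in FPKM, which corrects for transcript length. Differences are log2 differences of count equivalents plus 1, Cast/EiJ minus C57BL/6J, tested with limma, and an adjusted p under 0.05 is a call. Unique hits are read pairs that fit a single gene and, in the F1, a single allele, and give the depth. Libraries held 8158534 to 12363291 unique hits, of which 95217 to 145767 lay in the members. Retinal identity held in every library, with the 5 rod markers summing to 15591 to 17406 FPKM and the 2 pigment epithelium markers to 0.0744 to 0.875 FPKM. The 2 ganglion cell markers summed to 116 to 131 FPKM in F0 B6 and 73.8 to 83.5 FPKM in F0 Cast, and the 3 cone markers to 309 to 401 and 200.4 to 268 FPKM. In the other direction, the 2 amacrine markers summed to 95.7 to 127 FPKM in F0 B6 and 132 to 154 FPKM in F0 Cast, and the rod markers to 15591 to 15732 and 16622 to 17406 FPKM. The part of these markers in the F0 differences below was not tested, and in bulk tissue fewer cells of a type cannot be told apart from less RNA per cell. Replicate 1 was the highest library in F0 B6, F0 Cast and F1 B6xCast at once for 45 of the 281 members (16.0%) and for 17.0% of all protein-coding genes of the same depth. These shares were 5.69% and 2.7% for replicate 2, and 3.56% and 6.82% for replicate 3.

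The coding sequences show what the members share beyond their name. A C2H2 pattern (cysteines 2 or 4 residues apart, 12 residues, then histidines 3 to 5 apart) was found in the longest coding sequence of 273 members, 97.2%, against 3.52% of 21289 autosomal protein-coding genes. The members with the pattern had a median of 10 fingers, and Zfp142 had the most, 36. The 8 members without it included Zfp365 and the mRNA decay factors Zfp36l1 and Zfp36l2, which carry fingers of the CCCH type. A stretch like the start of a KRAB domain was found in 114 members, 40.6%, against 1.24% of all protein-coding genes. Each finger with its linker spans 28 codons, and a unit of 84 bases from Zfp141, the member with the largest allelic difference, shows the layout, with the codons of the zinc-binding cysteines and histidines in capitals (GENCODE M1 transcripts, NCBIM37, chr7:49731100-49731183, minus strand, coding exon).
Zfp141: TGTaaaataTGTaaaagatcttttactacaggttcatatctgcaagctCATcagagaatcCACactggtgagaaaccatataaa

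Tandem copies can be close to identical, which matters for where a read pair can be placed. Zfp119a and Zfp119b, neighbours on chromosome 17, were 88.4% identical over aligned coding bases, and the middle finger unit of Zfp119a (chr17:56004817-56004900, minus strand) differed from its closest unit in Zfp119b (chr17:56078408-56078491, minus strand) at 14 of 84 bases, in capitals here.
Zfp119a: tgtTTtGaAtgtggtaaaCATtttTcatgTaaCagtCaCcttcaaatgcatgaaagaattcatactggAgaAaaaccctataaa
Zfp119b: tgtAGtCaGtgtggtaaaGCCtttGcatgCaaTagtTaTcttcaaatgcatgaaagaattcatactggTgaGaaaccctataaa

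Zfp932 on chromosome 5 was 98.6% identical to its neighbour Gm15446 over aligned coding bases, and the middle unit of Zfp932 (chr5:110438360-110438443, plus strand) differed from that of Gm15446 (chr5:110371887-110371970, plus strand) at 3 bases, again in capitals.
Zfp932: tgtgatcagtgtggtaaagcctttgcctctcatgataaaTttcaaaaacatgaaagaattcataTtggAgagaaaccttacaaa
Gm15446: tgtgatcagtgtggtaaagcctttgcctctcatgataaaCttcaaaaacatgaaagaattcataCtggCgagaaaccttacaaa

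Zfp97 and Zfp960 on chromosome 17 were 98.2% identical, and the middle unit of Zfp97 (chr17:17282342-17282425, plus strand) occurs without a difference in Zfp960 (chr17:17225127-17225210, plus strand).
Zfp97: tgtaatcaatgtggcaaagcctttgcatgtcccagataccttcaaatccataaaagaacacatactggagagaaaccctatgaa

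Of the 281 members, 41 shared at least 1 stretch of the read length with the transcript of another gene, and 12 shared over 10% of such stretches. The highest share was 67.1% in Zfp97, followed by 37.8% of the stretches of Zfp963 shared with Gm20422 and 31.9% of those of Zfp955b shared with Zfp955a. Among the other members named below, the shares were 17.4% in Zfp738, 14.7% in Zfp354a, 10.7% in Zfp937, 8.01% in Zfp607, 7.15% in Zfp119a, 5.94% in Zfp119b and 5.51% in Zfp874a.

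The first comparison asked how many members differ between the retinas of the parental strains. In F0, 77 of 281 members (27.4%) were called, against 33.8% of all genes tested and 33.0% of autosomal protein-coding genes with the same minimum of unique hits. Cast/EiJ was higher for 48 of the members (17.2% of all genes tested were called higher) and lower for 29 (16.6% of all genes). This balance changed with processing, to 46 and 40 with edgeR on unique hits (against 2392 and 2845 of 13871 genes). It was 40 and 31 with DESeq2, 26 and 23 with no filter on low values, and 63 and 36 with the replicate number as a block. The median log2 difference over the members was 0.04, and over all genes tested 0.03. The 3 libraries of each strain did not overlap for 124 members (44.1%), a share that was 48.0% among all genes tested and 47.8% among protein-coding genes of the same depth. Of the called members, 8 differed by at least 2-fold, against 1635 of all 14452 genes tested and 592 of 10404 protein-coding genes of the same depth. The 8 members were Zfp141 and Zfp809, higher in Cast/EiJ, and Zfp97, Zfp59, Zfp641, Zfp607, Zfp111 and Zfp236, lower in Cast/EiJ.

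The second comparison asked how often the alleles of a member differ within F1 retinas. In F1, 120 members (42.7%) were called, against 47.0% of all genes tested and 47.2% of protein-coding genes of the same depth. The Cast/EiJ allele was higher for 59 and lower for 61, against 23.5% of all genes called in each direction. The median size of the allelic log2 difference over the members was 0.15, and 0.17 over protein-coding genes of the same depth. All 6 Cast/EiJ values lay above or below all 6 C57BL/6J values for 65 members (23.1%), 27 higher and 38 lower, against 25.5% of all genes tested and 25.9% of genes of the same depth. An edgeR quasi-likelihood test on unique hits called 104 members, against 45.3% of all genes, 96 of them in common with limma and in the same direction, 43 higher and 53 lower. The 2 tests called no member in opposite directions. Differences were mostly modest, with 22 called members at 1.5-fold or more and 3 at 2-fold or more, namely Zfp141, Zfp365 and Zfp236. At 2-fold or more, 1166 of all 13414 genes tested were called, and 447 of 10406 protein-coding genes of the same depth.

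The share called depended on depth. Among members with under 1000 unique hits, 35.6% of 90 had an allelic call, against 45.4% of all protein-coding genes in that range. Members with 3000 hits or more had calls in 53.4% of 73, against 49.3%. The F0 share of members changed less, from 26.7% to 28.8%.

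**Figure D1:**
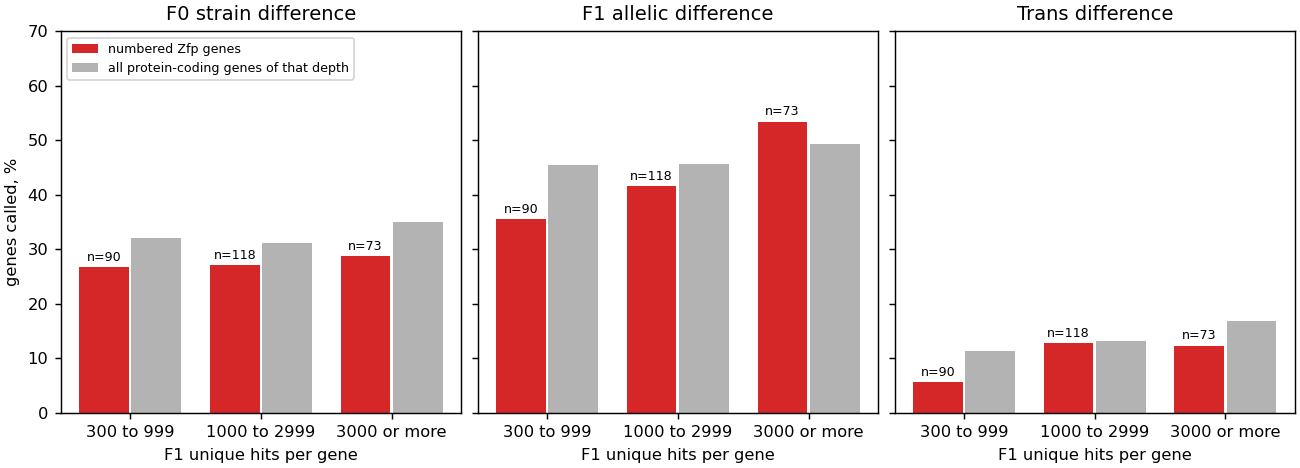
Share of genes called (%, adjusted p under 0.05) in the F0, allelic and trans comparisons, by F1 unique hits per gene, for the numbered Zfp genes (red, with their number) and all autosomal protein-coding genes of that depth (grey). The allelic share of the members climbs from 35.6% to 53.4% with depth, and the F0 share stays between 26.7% and 28.8%.

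Zfp141, a KRAB-type gene on chromosome 7 (chr7:49728756-49761096), had the largest F0 and allelic differences of all members. Its count equivalents were 98.5, 75.6 and 110 in F0 B6 and 871, 789 and 598 in F0 Cast. In the F1, the C57BL/6J allele had a lowest value of 75.3 and a highest of 145, and the Cast/EiJ allele 528 and 1000. No library of 1 side reached the other side. The F0 log2 difference was 2.98 ± 0.18 (SE, adjusted p = 3.42e-06, 7.87-fold) and the allelic difference 2.71 ± 0.15 (adjusted p = 2.35e-10, 6.55-fold), and 88.6% of its allele-specific unique hits fell on the Cast/EiJ allele. The trans difference was 0.26 ± 0.28 (adjusted p = 0.577).

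Zfp365, a DISC1-binding protein and the second most abundant member by mean F0 FPKM, followed the same pattern. Its count equivalents were 2510, 2630 and 2840 in F0 B6 and 5170, 5160 and 5180 in F0 Cast. The C57BL/6J allele ranged from 2520 to 2730 and the Cast/EiJ allele from 5350 to 5770 in the 6 F1 libraries. Each allele thus kept close to the level of its parental strain. The F0 log2 difference was 0.96 ± 0.07 (adjusted p = 9.65e-06) and the allelic difference 1.09 ± 0.03 (adjusted p = 7.70e-14).

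Zfp236, with 29 fingers, had the largest allelic difference towards C57BL/6J. Its count equivalents were 1710, 1980 and 1790 in F0 B6 and 881, 891 and 852 in F0 Cast, and the alleles ranged from 1750 to 1880 and from 718 to 820. The groups did not overlap in F0 or F1. The allelic log2 difference was -1.24 ± 0.04 (adjusted p = 2.29e-13) and the F0 difference -1.06 ± 0.08 (adjusted p = 1.14e-05).

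The next members in each direction by the naming rule (called by both tests, with all 6 F1 libraries on that side) had allelic differences of 1.49-fold to 1.84-fold. Towards Cast/EiJ these were Zfp78, Zfp239, Zfp618, Zfp955b, Zfp511 and Zfp472, with allelic log2 differences from 0.57 to 0.67 and all 6 F1 libraries on that side. Zfp239 alone among them had no F0 call (log2 difference 0.04 ± 0.19, adjusted p = 0.892), with its strains overlapping at 93.3 to 113 and 78 to 121 count equivalents. Zfp955b shared 31.9% of its read-length stretches with Zfp955a. Towards C57BL/6J these were Zfp28, Zfp119b, Zfp937, Zfp395, Zfp157, Zfp879 and Zfp677, with allelic log2 differences from -0.88 to -0.63, again with all 6 libraries on that side. Of these, Zfp119b, Zfp395 and Zfp157 were also called in F0, with log2 differences of -0.81, -0.55 and -0.80. Zfp28 had count equivalents of 148, 151 and 113 in F0 B6 and 93.1, 112 and 104 in F0 Cast (adjusted p = 0.0797), while its alleles ranged from 134 to 179 and from 66.1 to 114.

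**Figure D2:**
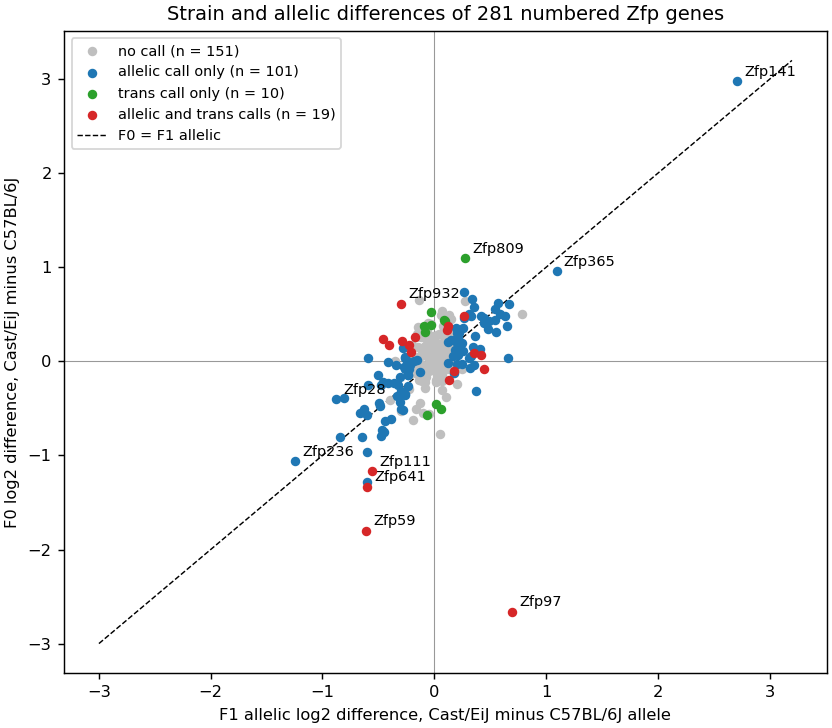
F0 log2 difference (vertical axis) against F1 allelic log2 difference (horizontal axis), Cast/EiJ minus C57BL/6J, for the 281 members, coloured by calls, with a dashed line where both are equal. Most called members lie near the line, Zfp141 at 2.71 and 2.98, while Zfp97, Zfp59 and Zfp641 lie below it and Zfp932 and Zfp809 above it.

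The third comparison set the F0 difference against the allelic difference. Over the 281 members, Pearson's r between both log2 differences was 0.63 and Spearman's rho 0.56, given as a description across genes that share libraries and depth, and 0.74 and 0.62 over protein-coding genes of the same depth. Of the 120 allelic calls, 95 (79.2%) had an F0 difference of the same sign, against 83.1% of allelic calls among protein-coding genes of the same depth. Also called in F0 in the same direction were 45 (37.5%, against 46.7%). In the opposite direction, 3 were called in F0 (2.5%, against 2.47%), namely Zfp97, Zfp932 and Zfp282. EdgeR on unique hits called none of these 3 between alleles (adjusted p from 0.151 to 0.423). Of the 77 F0 calls, 29 (37.7%) had no allelic call, against 29.7% of F0 calls among protein-coding genes of the same depth.

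A trans difference was called for 29 members (10.3%), against 14% of all genes tested and 14.3% of protein-coding genes of the same depth. The trans difference was positive for 17 and negative for 12, against 5.64% and 8.31% of all genes tested. This balance changed with scaling, to 11 and 14 with TMM factors, to 13 and 22 with edgeR on unique hits (against 5.32% and 11.4% of all genes) and to 6 and 7 with DESeq2. EdgeR and limma shared 22 trans calls, 10 positive and 12 negative. Combining the allelic and trans calls of limma, 35.9% of the members had an allelic call alone (against 38.1% of all genes tested), 10 a trans call alone (3.56%, against 5.03%), 19 both (6.76%, against 8.92%) and 151 neither.

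Zfp59, a KRAB-type gene in a cluster on chromosome 7 (chr7:28627874-28641995), had a trans difference without an extensive shared sequence, at 2.26% of its stretches. Its count equivalents were 169, 137 and 164 in F0 B6 and 44.4, 45.1 and 42.7 in F0 Cast. In the F1, the C57BL/6J allele ranged from 149 to 180 and the Cast/EiJ allele from 92.5 to 119, so the Cast/EiJ allele in the hybrid lay above every F0 Cast library. The F0 log2 difference was -1.80 ± 0.15, the allelic difference -0.61 ± 0.08 and the trans difference -1.19 ± 0.15 (adjusted p = 3.28e-05).

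Zfp641 on chromosome 15 and Zfp111 on chromosome 7 showed the same order. Zfp641 had 393, 372 and 334 count equivalents in F0 B6 and 130, 163 and 142 in F0 Cast, and its alleles ranged from 309 to 353 and from 192 to 247. Its trans log2 difference was -0.74 ± 0.14 (adjusted p = 0.00145). Zfp111 had 315, 303 and 307 against 146, 137 and 128 in F0, and 272 to 329 against 169 to 232 in the F1, with a trans difference of -0.61 ± 0.12 (adjusted p = 0.00221). In both genes the C57BL/6J allele stayed at about the level of its strain and the Cast/EiJ allele lay above its strain's range.

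Zfp809, which silences retroviruses in embryonic cells, had the largest positive trans difference after Zfp932. It was at 28.4, 45.9 and 57.4 count equivalents in F0 B6 and 73.2, 109 and 95.8 in F0 Cast, and its alleles overlapped at 47.9 to 65 and 59.2 to 77.3. The F0 log2 difference was 1.10 ± 0.27 (adjusted p = 0.0141), the allelic difference 0.28 ± 0.15 (adjusted p = 0.135) and the trans difference 0.82 ± 0.27 (adjusted p = 0.0485). The trans call was lost under several alternatives, DESeq2 on unique hits and a pseudocount of 0.1 among them. Zfp354b, the next in size among called members at 0.69 ± 0.20 (adjusted p = 0.0260), lost its trans call with edgeR (log2 difference 0.37, adjusted p = 0.300), and 12.7% of its stretches were shared with Zfp354a.

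Zfp97 had the largest trans difference of all, -3.35 ± 0.28 (adjusted p = 5.37e-07), and is also the member with the most shared sequence. Its count equivalents were 223, 191 and 173 in F0 B6 and 35.4, 35.5 and 21.3 in F0 Cast, a log2 difference of -2.66 ± 0.22. In the F1, the order was turned, with 89 to 175 on the C57BL/6J allele and 214 to 242 on the Cast/EiJ allele, an allelic difference of 0.69 ± 0.16 (adjusted p = 0.00145). In unique hits the alleles were even, with 47.3% on the Cast/EiJ allele and an edgeR log2 difference of -0.13 (adjusted p = 0.423). The strains differed in unique hits as well, with 76, 71 and 56 in F0 B6 and 9, 9 and 6 in F0 Cast. The Cast/EiJ allele had 32 to 56 unique hits per F1 library. The trans call of Zfp97 was kept with edgeR and with DESeq2 on unique hits. Zfp960, the near-identical gene whose finger unit is given above, went the other way in F0, from 206, 202 and 232 to 337, 383 and 355 count equivalents (log2 difference 0.75 ± 0.10, adjusted p = 0.00073). The sum of both genes, formed after their values were seen, was 393 to 429 in F0 B6 and 372 to 419 in F0 Cast, ranges that overlap. The same sum was 278 to 412 on the C57BL/6J alleles and 366 to 506 on the Cast/EiJ alleles, which also overlap. How the split of read pairs between the 2 genes enters the trans difference was not tested.

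Zfp932 was at 379, 356 and 322 count equivalents in F0 B6 and 514, 567 and 537 in F0 Cast, whereas its C57BL/6J allele ranged from 367 to 537 and its Cast/EiJ allele from 320 to 401. The trans difference was 0.92 ± 0.12 (adjusted p = 8.42e-05), and 0.62 with edgeR on unique hits (adjusted p = 0.00088). Its near-identical neighbour Gm15446 was higher in Cast/EiJ in F0 (log2 difference 0.97 ± 0.09) and between alleles (0.87 ± 0.08), so the pair moved together in F0 and apart between alleles. The sum of Zfp932 and Gm15446 did not overlap between the strains, at 637 to 750 in F0 B6 and 1167 to 1233 in F0 Cast, and overlapped between alleles, at 685 to 897 and 882 to 1107.

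**Figure D3:**
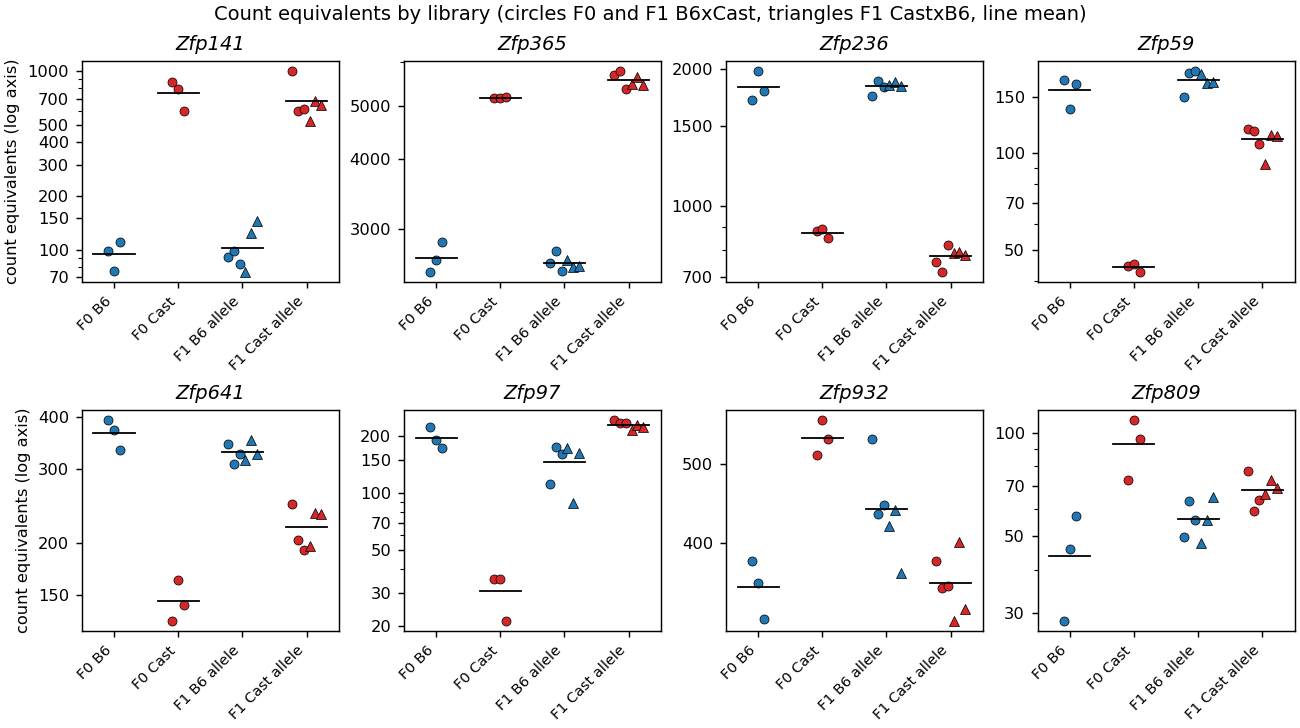
Count equivalents per library (log axis) for 8 members in F0 B6, F0 Cast and both alleles of the 6 F1 libraries, with a line at each mean. The alleles of Zfp141, Zfp365 and Zfp236 repeat the parental levels, the Cast/EiJ allele of Zfp59 at 92.5 to 119 lies above F0 Cast at 42.7 to 45.1, and the Cast/EiJ allele of Zfp97 at 214 to 242 lies above F0 Cast at 21.3 to 35.5.

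The calls of the 2 tests were also counted for members with and without shared sequence. Of the 41 members that shared a stretch with another gene, limma gave 24 an allelic call (58.5%) and edgeR on unique hits 16 (39.0%), whereas of the other 240 members 96 (40.0%) and 88 (36.7%) were called. Over all genes tested the shares were 47.0% with limma and 45.3% with edgeR. Trans calls were made for 8 of the 41 (19.5%) and for 21 of the 240 (8.75%), beside 14% of all genes tested. The difference between the 41 and the 240 members was not tested for allelic or trans calls.

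No member was called for a difference between the maternal and the paternal allele with limma, against 0.492% of all genes tested. The smallest adjusted p over the members was 0.317, 11 members had an unadjusted p under 0.05, the median size of the log2 difference was 0.05, and edgeR and DESeq2 also called 0 members. Without replicate 2 of F1 B6xCast, 1 member, Zfp58, was called (log2 difference 0.46, adjusted p = 0.0415), and with all libraries its difference was 0.27 ± 0.13 (adjusted p = 0.769).

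Location was examined through clusters, defined as at least 3 autosomal protein-coding numbered Zfp genes with gaps of at most 200 kb between neighbours. By this definition 132 members (47.0%) lay in 25 clusters and 149 outside. Chromosome 7 held 70 members, 53 of them in 9 clusters, and chromosomes 17 and 13 followed with 31 and 23 members. Clustered members had a median of 12 fingers and 61.4% had a KRAB-like stretch, against 8 fingers and 22.1% outside. They were also less covered, at a median of 1187 unique hits and 4.03 FPKM against 2214 hits and 6.87 FPKM.

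Allelic calls were made for 60 of 132 clustered members (45.5%) and 60 of 149 others (40.3%), beside the 47.0% of all genes. F0 calls were made for 38 (28.8%) and 39 (26.2%), beside 33.8% of all genes, and trans calls for 16 (12.1%) and 13 (8.72%), beside 14% of all genes, none of which was tested as a difference between the sets. Among clustered members the Cast/EiJ allele was higher in 26 calls and lower in 34, and among the others higher in 33 and lower in 27. KRAB-like members inside clusters had allelic calls in 51.9% of 81 and those outside in 33.3% of 33.

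Neighbouring members pointed the same way about as often as opposite ways. Among 107 pairs of adjacent members in a cluster, 55 had allelic differences of the same sign. Where both members of a pair were called, 27 pairs in all, 14 had the same direction and 13 opposite directions. Of the 15 clusters with at least 2 allelic calls, 10 held calls in both directions and 5 in a single direction.

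The largest clusters were those with 14 members each on chromosome 7 (chr7:30553571-30954746) and chromosome 13 (chr13:67139530-67927937). On chromosome 7, 8 of the 14 members were called between alleles, 4 in each direction, all of them by edgeR as well. Zfp940, Zfp383, Zfp566 and Zfp260 were lower on the Cast/EiJ allele, with log2 differences of -0.47, -0.24, -0.59 and -0.23. Zfp27, Zfp74, Zfp568 and Zfp146 were higher, with 0.41, 0.45, 0.42 and 0.36. Zfp568, known for silencing a placental transcript of Igf2, had 293, 296 and 298 count equivalents in F0 B6 and 290, 335 and 307 in F0 Cast, while its alleles ranged from 261 to 303 and from 332 to 420 without overlap. Of the 14 members, Zfp940 alone was called in F0 (log2 difference -0.73 ± 0.14, adjusted p = 0.00508), and Zfp74, Zfp568 and Zfp146 had trans calls, with trans log2 differences of -0.53, -0.35 and -0.27.

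On chromosome 13, Zfp712 was called lower on the Cast/EiJ allele (-0.35) and Zfp759 higher (0.36), and of these edgeR called Zfp712 only. Zfp738 and Zfp874a of this cluster were lower in F0 Cast (log2 differences -0.57 and -0.51) with even alleles (-0.07 and 0.06) and had trans calls, and Zfp759 was higher in F0 Cast (0.58). In this cluster 9 members shared read-length stretches with other genes, in the cluster of 14 on chromosome 7 none did.

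Clusters of 10 members lay on chromosome 17 (chr17:32908181-33531586) and chromosome 7 (chr7:24866943-25372660). On chromosome 17, Zfp871, Zfp472, Zfp952 and Zfp955b were higher on the Cast/EiJ allele and Zfp563 lower, and 9 of the 10 members had a positive allelic difference, at a median log2 difference of 0.10. Of these 5 calls, edgeR made all but that of Zfp952. On chromosome 7, Zfp111 and Zfp61 were the called members, both lower on the Cast/EiJ allele (-0.56 and -0.47) and in F0 Cast (-1.17 and -0.80), and the other 8 lay between -0.16 and 0.21.

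Further clusters were picked after their values were seen. On chromosome 11 (chr11:50624588-50886301) all 6 members were called, with Zfp354c and Zfp454 higher on the Cast/EiJ allele (0.42 and 0.54) and Zfp879, Zfp2, Zfp354b and Zfp354a lower (-0.64, -0.18, -0.46 and -0.31). EdgeR called Zfp354c, Zfp454 and Zfp879 of these. On chromosome 9 (chr9:20149580-20399638) all 5 members were called by both tests, Zfp26 and Zfp266 higher and Zfp560, Zfp426 and Zfp846 lower. On chromosome 7 (chr7:28516408-28770815), where Zfp59 lies, all 5 members were negative and 4 were called, Zfp60, Zfp626, Zfp59 and Zfp607, of which edgeR called Zfp60, Zfp626 and Zfp59. In F0, Zfp607 had 63.3, 34.2 and 56.1 count equivalents in B6 and 12.5, 33.3 and 18.2 in Cast, so the strains were separated by less than 1 count equivalent.

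**Figure D4:**
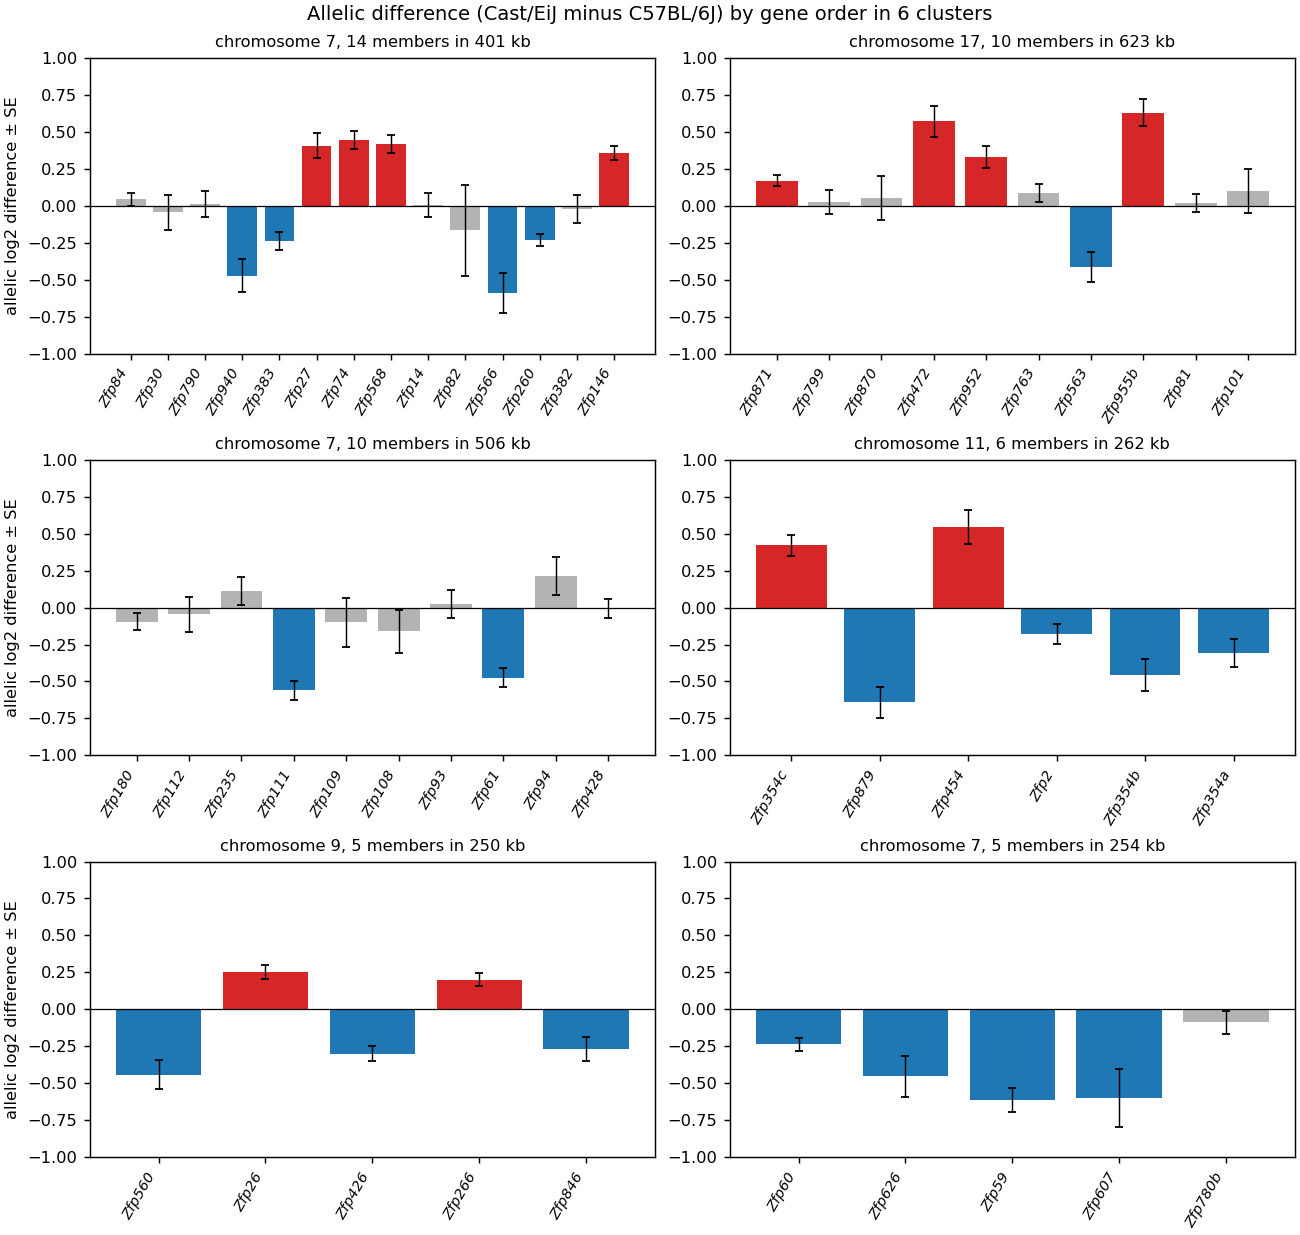
Allelic log2 difference ± SE (Cast/EiJ minus C57BL/6J) of the members of 6 clusters in their order along the chromosome, red for called higher, blue for called lower and grey for not called. Called neighbours point in both directions in the clusters of 14 on chromosome 7 and of 6 on chromosome 11, and all 5 members of the last cluster are below 0.

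Zfp119a and Zfp119b, whose finger units are shown above, gave opposite calls across a gap of 59849 bases. Zfp119a had 37.8, 35.8, 67.6, 45.3, 46.8 and 43 count equivalents on the C57BL/6J allele and 55.2, 70.1, 55, 56, 72.8 and 75.5 on the Cast/EiJ allele, which overlap through a single library. Its allelic log2 difference was 0.49 ± 0.15 (adjusted p = 0.0111). Zfp119b ranged from 69.4 to 82.7 on the C57BL/6J allele and from 32.7 to 49 on the Cast/EiJ allele, with -0.85 ± 0.12 (adjusted p = 1.88e-05). In F0, Zfp119b was at 56, 89.9 and 74.9 in B6 and 48.2, 35.2 and 40.2 in Cast. The same directions were called by edgeR, with log2 differences of 0.63 and -0.82.

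Members with described functions, Zfp809 among them, were read from a list of 23 symbols, of which 20 were members. Of these, 5 were called between alleles, 1 higher and 4 lower on the Cast/EiJ allele, and 6 in F0, 5 higher and 1 lower in Cast/EiJ, beside 47.0% and 33.8% of all genes tested. Zfp106, an RNA-binding protein needed by motor neurons, was the allelic call towards Cast/EiJ, with 5490 to 6090 count equivalents on the C57BL/6J allele and 6830 to 7870 on the Cast/EiJ allele (log2 difference 0.36 ± 0.04, adjusted p = 2.61e-07). Zfp521, a coregulator in neural differentiation, was lower on the Cast/EiJ allele (-0.60 ± 0.08) and in F0 Cast (-0.57 ± 0.12), with alleles from 588 to 802 and from 424 to 558. Zfp408, whose human counterpart is mutated in inherited retinal disease, ranged from 272 to 327 on the C57BL/6J allele and from 214 to 253 on the Cast/EiJ allele, a log2 difference of -0.31 ± 0.06 (adjusted p = 0.000595), and was not called in F0 (-0.16 ± 0.10, adjusted p = 0.248). Zfp462 (-0.24 ± 0.06) and the neuronal repressor Zfp238 (-0.28 ± 0.11, adjusted p = 0.0359) were the remaining calls, and Zfp238 was lower on the Cast/EiJ allele in only 4 of the 6 libraries.

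In F0, the regulators of transcription Zfp281 and Zfp326, the ribosome quality control ligase Zfp598, Zfp809 and Zfp106 were higher in Cast/EiJ. The F0 call of Zfp106 was lost with edgeR (log2 difference 0.20, adjusted p = 0.0650), and that of Zfp598 without replicate 2 or 3 of F0 B6 or replicate 1 of F0 Cast. Zfp281 had 1450, 1300 and 1320 count equivalents in F0 B6 and 1870, 1800 and 1800 in F0 Cast (log2 difference 0.43 ± 0.07), with an allelic difference of 0.10 ± 0.06. Zfp326 had 430, 423 and 435 against 590, 573 and 525 (0.39 ± 0.08), with an allelic difference of -0.03 ± 0.06. Both, with Zfp809, had trans calls, which edgeR made for Zfp281 and Zfp809 and not for Zfp326 (adjusted p = 0.0923). Zfp513, whose human counterpart is also linked to retinal degeneration, was not called in any comparison, with allele ranges of 327 to 484 and 315 to 447. The decay factors Zfp36l1 and Zfp36l2 were not called either, with allelic log2 differences of -0.08 ± 0.11 and -0.14 ± 0.12.

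Levels over the members spanned 0.611 to 269 FPKM in F0, with a median of 5.45 FPKM, and 212 of them (75.4%) lay under the median of 9.38 FPKM of protein-coding genes with the same minimum. Zfp385a, a p53-binding protein, was the most abundant, at 264 FPKM in F0 B6 and 274 FPKM in F0 Cast, followed by Zfp365, Zfp444 and Zfp106. Its alleles were even (log2 difference -0.04 ± 0.13). Zfp444 was higher on the Cast/EiJ allele, 1780 to 2260 against 1290 to 1500 count equivalents (0.55 ± 0.07, adjusted p = 5.58e-06), and in F0 Cast (0.56 ± 0.12).

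The partners of KRAB zinc finger proteins were read from a list of 16 symbols, of which Uhrf1, at 0.0841 and 0.143 FPKM in the strains, was too low to test. The others gave 16 tested gene entries, since Atf7ip has a second entry. In F0, 3 were higher and 3 lower in Cast/EiJ, beside 33.8% of all genes called. Trim28, the co-repressor bound by KRAB domains, rose from 50.8 to 74.8 FPKM (log2 difference 0.47 ± 0.07, adjusted p = 0.00136), with an allelic difference of 0.12 ± 0.05 (adjusted p = 0.0534) and a trans difference of 0.34 (adjusted p = 0.0171). Hdac1 and the heterochromatin protein gene Cbx3 were lower in F0 Cast, with log2 differences of -0.95 ± 0.12 and -0.73 ± 0.13, while their alleles differed by 0.14 ± 0.08 and 0.25 ± 0.07. Their trans differences, -1.09 (adjusted p = 4.55e-05) and -0.98 (adjusted p = 4.49e-05), were opposite in sign to that of Trim28. Between alleles, 4 entries were higher and 4 lower on the Cast/EiJ allele, beside 47.0% of all genes called.

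The Zbtb, Zscan and Zkscan genes, zinc finger families named by other domains, held 46 genes with the same limits. Of these, 10 (21.7%) were called in F0, against 33.8% of all genes, and 9 of them were higher in Cast/EiJ, against 17.2% of all genes. Between alleles 16 (34.8%) were called, 8 in each direction, against 47.0% of all genes.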

How the data were processed

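Read pairs were trimmed with Trim Galore 0.2.6 and aligned with Bowtie 0.12.9 per the labels, to strain or hybrid transcriptomes, and expression was estimated with MMSEQ. The authors deposited count equivalents, a normalized signal that is not integer and divides shared read pairs between genes and alleles. The authors also deposited the natural log of expression, used here as FPKM after exponentiation, its posterior SD (a score, not used in tests), and unique hits, a raw count. A deposited table of the authors' posterior probabilities was not used, nor were 36 further per-sample columns. Gene positions are NCBIM37.

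Tests used limma 3.58.1 (R 4.3.3) on log2 of count equivalents plus a pseudocount of 1, with Benjamini-Hochberg adjustment over all autosomal genes tested. F0 genes (14452) had at least 10 count equivalents in 3 libraries. Alleles and F0 strains entered 1 model with the library as a block (consensus correlation 0.1354) over 13414 genes averaging 10 or more unique hits per F1 library, both alleles added. Alternatives were edgeR 4.0.16 and DESeq2 1.42.0 on unique hits, other filters, pseudocounts and scalings, and libraries left out. On simulated 2-fold changes in 200 genes, limma recovered 87% in F0, 97% between alleles and 78% as trans, and edgeR 90% between alleles. Of the calls made there, 5.83% were false between alleles with limma and 6.74% with edgeR. With limma, 3.87% were false in F0 and 3.11% as trans. Recovery of changes under 2-fold, the size of most allelic calls above, was not tested. Members and lists were chosen with earlier results of these data known. Named members are the 8 largest allelic calls per direction shared by both tests with all 6 libraries on 1 side, the 3 largest trans calls per direction, the listed functions, the largest clusters (4, since 2 tied), the 4 most abundant, those at the limit and those behind small counts. Others named (Zfp111, Zfp119a, Zfp282, Zfp445 and the members of further clusters) were chosen after their values were seen. The replicates are separate pools, and p-values measure the spread between them. Zfp264 was not analysed here, and a further gene is not reported here.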

Additional observations from a re-analysis of the deposited data

Results flagged for a closer look

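In 91 named members, 2 had a single F1 library far from the others in the allelic log2 ratio (Cast/EiJ over C57BL/6J), and chance alone flags about 1 group in 20. For Zfp236, replicate 2 of F1 B6xCast had a ratio of -1.39, with the other libraries from -1.24 to -1.16. For Zfp712, replicate 1 of F1 B6xCast had a ratio of -0.70, with the others from -0.34 to -0.19, and its allelic call was lost without that library.

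The strain difference in F0 and the allelic difference in F1 differed, by the test of the difference itself, for 29 members, of which the 3 with the largest called difference in each direction are given here. The differences of the 2 log2 values were -3.35 for Zfp97, -1.19 for Zfp59, -0.74 for Zfp641, 0.92 for Zfp932, 0.82 for Zfp809 and 0.69 for Zfp354b, with limma adjusted p from 5.37e-07 to 0.0485. Zfp97, Zfp932 and Zfp354b shared 67.1%, 27.3% and 12.7% of their read-length stretches with other genes, Zfp59 2.26%, and Zfp641 and Zfp809 none.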

How the results depend on the processing

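The F0 count of 77 members moved to 49 with no filter on low values and 35 at an adjusted p under 0.01, the allelic count of 120 to 79 with DESeq2 on unique hits, and the trans count of 29 to 13 with DESeq2 and 10 at an adjusted p under 0.01. A stricter adjusted p lowers a count by construction, and the cause was not tested for the fit with no filter or for DESeq2. Leaving out each library in turn gave 54 to 72 F0 calls, 99 to 122 allelic calls, 20 to 32 trans calls and 0 to 1 parent-of-origin call. With a replicate block the counts were 99, 123, 31 and 0. Same-numbered replicates deviated from their group means with correlations of -0.0846 to 0.381 in 18 pairs of libraries from different groups. In 36 pairs with unlike numbers they were -0.286 to 0.217. Among F0 B6, F0 Cast and F1 B6xCast all same-number values were positive. They were 0.234 to 0.381 for replicate 1, 0.0196 to 0.0628 for replicate 2 and 0.151 to 0.184 for replicate 3. With F1 CastxB6 they were -0.0846 to 0.0482. The numbers were not taken to pair the samples in the main fits, and whether these groups share a replicate effect was not tested. The other alternatives left each count within 1.5 times, and 100 kb or 500 kb gaps or clusters of 2 genes did the same for the 132 clustered members.

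Among the named members, the allelic difference of Zfp97 turned to -0.13 with both edgeR and DESeq2 on unique hits, that of Zfp326, not called, to a call of 0.26 on log expression, and the F0 difference of Zfp74, not called, to a call of 0.32 on log expression. The F0 calls of Zfp119b, Zfp472, Zfp511, Zfp759 and Zfp874a and the allelic call of Zfp238 were each lost without any of several single libraries. Depth limits the members with few hits, where 6 had under 150 unique hits on an allele.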

Other observations

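Zfp445, which helps to keep imprints, was at 1720, 1540 and 1540 count equivalents in F0 B6 and 2230, 2230 and 2040 in F0 Cast (log2 difference 0.44 ± 0.07, adjusted p = 0.00221), with even alleles (0.09 ± 0.06) and a trans difference of 0.35 ± 0.11 (adjusted p = 0.0463).

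Replicate 1 stood above the other replicates in 3 groups for several abundant members. Zfp385a was at 14000 in replicate 1 of F0 B6 and at most 10100 in the others, at 16000 and at most 10100 in F0 Cast, and at 28900 and at most 20600 summed over alleles in F1 B6xCast, while the 3 libraries of F1 CastxB6 lay between 19620 and 19800. Zfp598 gave 895 against 728, 1210 against 1000 and 2137 against 1452 in the same order, and 1477 to 1544 in F1 CastxB6. The part of replicate 1 in the F0 differences was not tested beyond leaving out each library.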
